A study of Oryza sativa with 10 samples.

Results

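The regions described here are the H3K27me3 peaks of 93-11 (Yangdao-6) and TQ (Teqing), 2 indica rice varieties. Every peak in the 2 lists was a member, 9054 in 93-11 and 8385 in TQ, which gives 17439 of the 93054 peaks that 10 libraries hold in all. Both varieties were crossed to another indica variety, GL (Guangluai-4), and these 2 F1 hybrids (GL×93-11, GL×TQ) were profiled in the same way, with H3K36me3 as the second mark. The plants grew in the same summer in Wuhan, and the tissue was leaf, fully expanded and second in position, sampled while the secondary branches of the young panicle were forming. Leaves of 3 plots were pooled for each genotype, so there was 1 library a side, no replicate error and no test for any difference between 93-11 and TQ. The reads of these indica plants were mapped to Nipponbare, a japonica variety (genome version: not given in the sources used here). All positions below are on this genome. A peak was called shared when it overlapped a peak of the other variety by at least 1 bp, and otherwise it was counted as 93-11-only or TQ-only. An unshared peak is a missing call and not a measured absence of the mark, because tags were counted only inside called peaks. Shares carry a 95% Wilson interval and tag counts a 95% Poisson interval, and both cover counting error only.

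H3K27me3 is set on histone H3 by Polycomb repressive complex 2, and genes that carry it are usually silent. In plant leaves the mark typically lies over the bodies of genes that act in other organs or stages, such as regulators of flower and meristem identity, and the silent state can be passed on through cell division. H3K36me3 follows transcription and lies over the bodies of active genes, so the marks mostly occupy different places. No gene annotation of the genome version of the peaks was used, so the places below are given by position and not by gene name. For the same reason the tissue could not be checked against marker genes. The antibody label was not checked for the same reason. As a description of the marks, 6.43% of the shared 93-11 peaks (5.85% to 7.06%) overlapped an H3K36me3 peak of 93-11, and 6.54% of the shared TQ peaks (5.96% to 7.18%) overlapped one of TQ.

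Most H3K27me3 peaks of either variety had a counterpart in the other. In 93-11, 6361 peaks (70.3%, 69.3% to 71.2%) overlapped a TQ peak, and 2693 peaks (29.7%) did not. In TQ, 6345 peaks (75.7%, 74.7% to 76.6%) overlapped a 93-11 peak, and 2040 (24.3%) did not. The larger unshared share thus fell to the list with more peaks. That list also came from the library with more unique mapped reads. What part read depth had in the number of peaks and in the unshared shares was not tested. The 2 lists had 12062400 bp in common, which was 65.9% of the 18.3 Mb covered in 93-11 and 71.5% of the 16.9 Mb covered in TQ. The lists held 3710928 and 3378454 tags, equal to 8.65% and 9.29% of the unique mapped reads of the libraries. Their median fold enrichment over background was nearly equal, at 3.18 and 3.19. So was the part that scored at least 100, at 62.7% and 62.4%. The score was read as 10 times the negative log10 of the p-value of the peak caller. This reading rests on its lowest value of 50, where the calling threshold would lie.

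The overlaps were simple in form. Of 6370 overlapping pairs, 6303 joined exactly 1 peak of 93-11 to 1 peak of TQ, and these are called matched pairs below. A further 9 peaks of 93-11 each spanned 2 TQ peaks, and 25 peaks of TQ each spanned 2 peaks of 93-11. Only 6 overlaps were shorter than 200 bp, and the shortest was 1 bp. The borders of matched peaks also lay close together. In the median matched pair the common part was 88.9% of the combined length, with quartiles of 77.4% and 94.8%, and the summits lay 76 bp apart. In 19 matched pairs both borders were identical. The region that joined the most peaks lay on chromosome 10 from 20602608 to 20609110, with 2 peaks and 1626 tags in 93-11 and 2 peaks and 1352 tags in TQ. Of 32 regions that joined 3 peaks, the one with the most tags lay on chromosome 8 from 28112432 to 28119231, with 2203 tags in 2 peaks of 93-11 and 1583 tags in 1 peak of TQ. The next by tags, on chromosome 12 from 17273534 to 17277419, went the other way, with 591 tags in 2 peaks of 93-11 and 1876 tags in a single TQ peak.

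Unshared peaks were shorter and fainter than shared peaks in both varieties. In 93-11 the median length was 1547 bp for unshared peaks (quartiles 1138 and 2273 bp) and 2000 bp for shared peaks (1405 and 2735 bp). In TQ these medians were 1607.5 bp (1128 and 2498 bp) and 1919 bp (1370 and 2613 bp). The quartile ranges overlapped widely, so length alone did not separate the classes. The level of a peak is its tags per kb of length divided by the sum of tags of its list, per 1000000 tags. The median level of 93-11-only peaks was 36.8 against 47.1 for shared peaks, a ratio of 0.781. In TQ it was 42.6 against 49.7, a ratio of 0.857. Over all peaks the median level was 47.9 in TQ and 44.0 in 93-11. Unshared peaks held 23.9% of the tags in peaks of 93-11 and 21.7% of those in TQ.

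Peaks of higher score were more often shared, up to a score of about 200. Of the 869 peaks of 93-11 with a score under 60, 39.5% (36.3% to 42.8%) had a TQ peak, against 90.1% (85.7% to 93.2%) of the 242 peaks with a score of 500 or more. For TQ the shares at these ends were 50.1% (46.5% to 53.6%) of 767 peaks and 90.3% (85.6% to 93.6%) of 216 peaks. The shares of the varieties were furthest apart in the lowest class and nearly equal in the highest. The course between was not even, since the class from 300 to 500 had 85.4% (82.7% to 87.8%) in 93-11 and 91.4% (89.0% to 93.3%) in TQ. Of the unshared peaks, 1063 in 93-11 and 806 in TQ had a score of 100 or more, and 309 and 206 had a score of 200 or more. Length showed a different course. Under 1000 bp, 54.6% (50.9% to 58.2%) of the 93-11 peaks and 57.7% (53.9% to 61.3%) of the TQ peaks were shared. In TQ the share was highest from 2000 to 2500 bp, at 82.7% (80.6% to 84.6%), and lower again at 3500 bp or more, at 72.6% (68.9% to 76.0%). In 93-11 the share of the longest peaks was 78.1% (74.8% to 81.1%), within the interval of the lengths just below. The longest peak was 4491 bp in 93-11 and 4532 bp in TQ, and no list of the 10 libraries held a longer one. Whether broader regions are missing from the lists, so that long peaks lost their counterparts, was not tested. The level set the varieties apart at its upper end. Of the 55 peaks of 93-11 in the highest class of level, 33 were shared (60%, 46.8% to 71.9%), fewer than the 80.8% (74.4% to 85.8%) of the class below it. TQ showed no such drop, with 66 of 81 peaks shared in this class (81.5%, 71.7% to 88.4%).

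**Figure D1:**
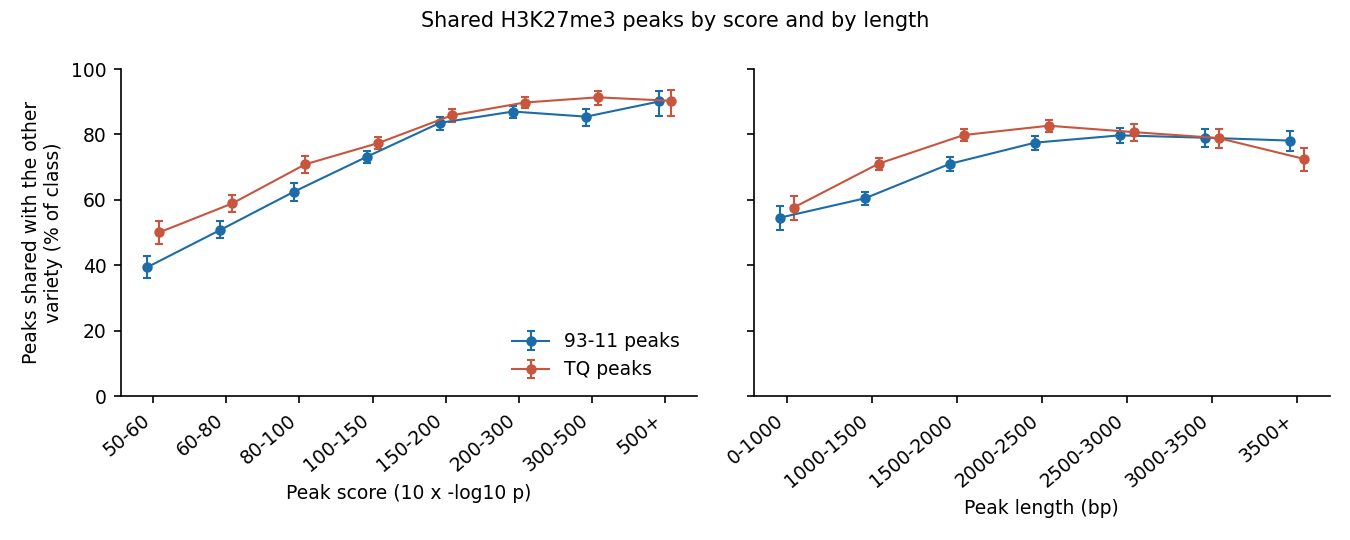
Percentage of the H3K27me3 peaks of 93-11 (blue) and TQ (red) that overlapped a peak of the other variety, by class of score (left) and of length in bp (right). The score was read as 10 times the negative log10 of the p-value. Points are shares of 1 library and bars are 95% Wilson intervals for counting error. The share climbs from 39.5% and 50.1% in the lowest score class to 90.1% and 90.3% in the highest.

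Long peaks of low fold enrichment and short peaks of high fold enrichment were both present among the unshared peaks. Of peaks over 3000 bp with a fold under 2.5, 93-11 had 410, of which 121 were unshared, and TQ had 377, of which 120 were unshared. Of peaks under 1500 bp with a fold of 4 or more, 187 of 925 in 93-11 and 202 of 861 in TQ were unshared. The shared percentages of the long faint peaks were 70.5% (65.9% to 74.7%) and 68.2% (63.3% to 72.7%). Those of the short strong peaks were 79.8% (77.1% to 82.2%) and 76.5% (73.6% to 79.2%). In both varieties the short strong peaks had the larger shared part, and no test was made between them and the long faint peaks. Over all peaks the shared part was 70.3% in 93-11 and 75.7% in TQ. The long faint peaks of 93-11 and the short strong peaks of TQ lay near these values. Short strong peaks lay above the value in 93-11, and long faint peaks lay below it in TQ.

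Few unshared peaks were near misses. The nearest TQ peak lay a median of 11259 bp from a 93-11-only peak, with quartiles of 3774 and 27613 bp. For TQ-only peaks the median was 10861 bp, with quartiles of 3762 and 24775 bp. The distances were thus alike in both directions. A gap of under 500 bp was found for 86 of the 93-11-only peaks (3.19%) and 82 of the TQ-only peaks (4.02%). At the far end, 284 peaks of 93-11 and 177 of TQ lay over 50000 bp from any peak of the other variety, and the largest distances were 259828 and 333274 bp.

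At matched pairs the level of H3K27me3 was much the same in both varieties. The median level was 47.2 in 93-11 and 49.7 in TQ, and the median log2 ratio of TQ over 93-11 was 0.07, a 1.05-fold difference. The quartiles of the ratios were -0.08 and 0.24 on the log2 scale, and 6042 pairs (95.9%) lay within 1.5-fold. Across the 6303 pairs Pearson's r of the log2 levels was 0.83 and of the log2 lengths 0.82. The pairs share sequence and mappability, and both peaks of a pair had to pass the same threshold, so these correlations only describe the lists. With the unique mapped reads as total in place of the tags in peaks, all log2 ratios shifted by 0.10 towards TQ, and the median became 0.18. By the tags in peaks, TQ was the higher variety in 3963 of the pairs (62.9%), a count that moves with this choice of total.

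**Figure D2:**
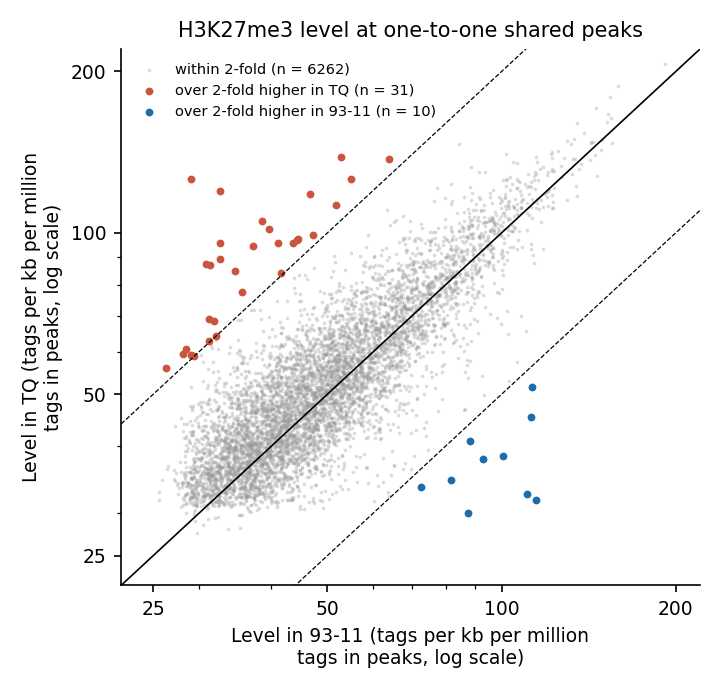
Level of H3K27me3 at each of the 6303 matched pairs in 93-11 (horizontal) and TQ (vertical), in tags per kb per 1000000 tags in peaks, on log axes. The solid line marks equal levels and the dashed lines a 2-fold difference. The cloud follows the solid line, with 31 pairs (red) over 2-fold higher in TQ and 10 pairs (blue) over 2-fold higher in 93-11.

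A difference of more than 2-fold in level was found in 41 of 6303 pairs (0.65%). By whole tags not divided by length it was found in 411 pairs (6.52%), 226 with TQ higher and 185 with 93-11 higher. By level, there were 31 pairs with TQ higher (0.492%) and 10 pairs with 93-11 higher (0.159%). These pairs often differed in extent as well. The TQ peak was the longer in 29 of the 31 pairs with TQ higher, with median lengths of 2702 bp in TQ and 1403 bp in 93-11. The 93-11 peak was longer in 9 of the 10 pairs with 93-11 higher, with medians of 2553.5 and 1497.5 bp. The fold enrichment given by the peak caller did not follow the level, since it was higher in TQ in only 14 of the 31 pairs and in 5 of the 10. Among the 6262 pairs within 2-fold, the TQ peak was the longer in 2556 and had the higher fold enrichment in 2947.

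In 2 of the 6 pairs with the largest ratio towards TQ, among 3718 pairs with a score of 100 and 100 tags in both lists, the TQ peak was about as long as the 93-11 peak and held far more tags. On chromosome 12 from 17288423 to 17289930, 93-11 had 295 tags and a level of 52.7. The TQ peak at this place had 770 tags and a level of 138, a 2.63-fold difference (2.29 to 3.01 for counting error), and GL had no peak there. In the hybrids the level was 37.5 in GL×93-11 and 107 in GL×TQ, the same order as in 93-11 and TQ. On chromosome 1 from 19600081 to 19601099, 93-11 had 131 tags and a level of 34.6. TQ had 341 tags there and a level of 84.8, a 2.45-fold difference (2.00 to 3.02), with 479 tags in the peak of GL. The level of GL at this place was 82.3, close to that of TQ, so 93-11 was the low one of the 3 parents.

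In the other 4 pairs the TQ peak was longer. The largest ratio, 2.74-fold (2.34 to 3.22), lay on chromosome 4 from 18411491 to 18412716, with 175 tags in 1226 bp in 93-11 and 1356 tags in 3812 bp in TQ. On chromosome 5 from 1368626 to 1369883 the counts were 185 in 93-11 and 1089 in TQ, a 2.56-fold difference in level (2.19 to 3.01). On chromosome 11 from 20636521 to 20638439 they were 332 and 1002, a 2.53-fold difference (2.24 to 2.88), and GL was like TQ, with 1162 tags. The pair on chromosome 4 from 18849377 to 18852267 had 590 tags in 93-11 and 1487 in TQ, a 2.29-fold difference (2.08 to 2.52). At these 4 places the TQ peak reached past the border of the 93-11 peak, so a wider called region and a higher level came together. GL was like 93-11 at the first 2, with levels of 28.8 and 40.9.

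The pairs with the largest ratio towards 93-11 included a compact one. On chromosome 5 from 1385631 to 1386962, 93-11 had 555 tags and a level of 112, with a score of 1395.1. TQ had 191 tags at a nearly identical position, a level of 45.3 and a score of 247.4, so 93-11 was 2.48-fold higher (2.10 to 2.94). The 93-11 peaks of this pair and of the chromosome 5 pair named above, in which TQ was the higher variety, lay only 15747 bp apart, so neighbouring places differed in opposite directions. On chromosome 3 from 16474097 to 16477868 the counts were 1408 in 93-11 and 279 in TQ, a 2.63-fold difference in level (2.31 to 3.0). On chromosome 9 from 16375659 to 16378579 they were 1006 and 282, a 2.46-fold difference (2.15 to 2.81). A pair on chromosome 7 from 10499857 to 10502426 had 1078 and 481 tags, a 2.19-fold difference (1.97 to 2.45). One on chromosome 12 from 22851660 to 22854196 had 830 and 303 tags, a 2.15-fold difference (1.89 to 2.46), and GL had no peak there. The sixth, on chromosome 5 from 3955161 to 3957768, stayed just under the limit at 1.95-fold (1.73 to 2.20), with 997 and 370 tags. At the other 5 of these 6 places the level of GL was between 68.9 and 105, and that of TQ between 37.8 and 52.8. TQ was therefore the low one of the 3 parents at each of these 5.

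The strongest matched pairs had level ratios outside the quartiles of all pairs, in both directions. The pair with the highest summed score lay on chromosome 12 from 26932913 to 26934143, with 464 tags in 93-11 and 476 in TQ and levels of 101.6 and 125.6, a 1.24-fold difference (1.09 to 1.41). On chromosome 8 from 20332737 to 20333531 there were 332 and 334 tags, with fold enrichments of 12.32 and 11.62, and the level was 1.21-fold higher in 93-11 (1.03 to 1.41). On chromosome 11 from 20878287 to 20880148 there were 793 and 871 tags in peaks of 1862 bp each, and the common part was 99.7% of the combined length. The level was 1.21-fold higher in TQ (1.09 to 1.33).

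The hybrids were not used to choose or rank the matched pairs, so they offered a second look at the level differences. A single matching peak in both hybrids was found for 5349 pairs. Over all of these the median log2 ratio of GL×TQ over GL×93-11 was -0.04. Among the pairs over 2-fold higher in TQ, 29 could be followed, and 27 of them were higher in GL×TQ, with a median log2 ratio of 0.45. All 10 pairs over 2-fold higher in 93-11 were higher in GL×93-11, with a median of -0.39. Of the 47 pairs 1.5- to 2-fold higher in 93-11, 46 were higher in GL×93-11. Of the 141 pairs 1.5- to 2-fold higher in TQ, 82 were higher in GL×TQ. These counts stand beside 39.7% higher in GL×TQ and 60.3% higher in GL×93-11 over all 5349 pairs. In the classes over 2-fold, nearly all pairs had the order of the varieties in the hybrids, with smaller median ratios. Across all 5349 pairs Pearson's r of the parental and hybrid log2 ratios was 0.27, a description over places of 4 libraries that also share the GL genome in both hybrids.

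The same question was asked of the unshared peaks, which were followed into the lists of GL and of the hybrids. Peaks of TQ alone were found in GL more often than peaks of 93-11 alone. GL had a peak at 1272 of the 2040 TQ-only peaks (62.4%, 60.2% to 64.4%) and at 948 of the 2693 93-11-only peaks (35.2%, 33.4% to 37.0%). Of shared peaks GL had 84.1% by either list. The order held in each score class, with 31.1% against 59.97% under a score of 100, 40.2% against 67.8% from 100 to 200, and 44.7% against 60.7% at 200 or more.

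Each hybrid had more of the unshared peaks of its own parent, and the contrast widened with the score. GL×93-11 had 42.8% (40.9% to 44.7%) of the 93-11-only peaks, and GL×TQ had 32.4% (30.6% to 34.2%). Of the TQ-only peaks, GL×TQ had 57.99% (55.8% to 60.1%) and GL×93-11 had 38.6% (36.5% to 40.7%). At a score of 200 or more, GL×93-11 had 76.7% (71.7% to 81.1%) of the 309 peaks of 93-11 alone and GL×TQ had 39.2% (33.9% to 44.7%). For the 206 peaks of TQ alone in this class, the shares were 84.0% (78.4% to 88.4%) in GL×TQ and 43.2% (36.6% to 50.03%) in GL×93-11. Under a score of 100 the contrast was small for 93-11, at 30.1% (27.9% to 32.3%) against 27.6% (25.5% to 29.8%), where the intervals overlapped, and larger for TQ, at 46.7% against 33.9%. Among strong 93-11-only peaks, 127 were in GL×93-11 alone and 11 in GL×TQ alone. Among strong TQ-only peaks, 86 were in GL×TQ alone and 2 in GL×93-11 alone.

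**Figure D3:**
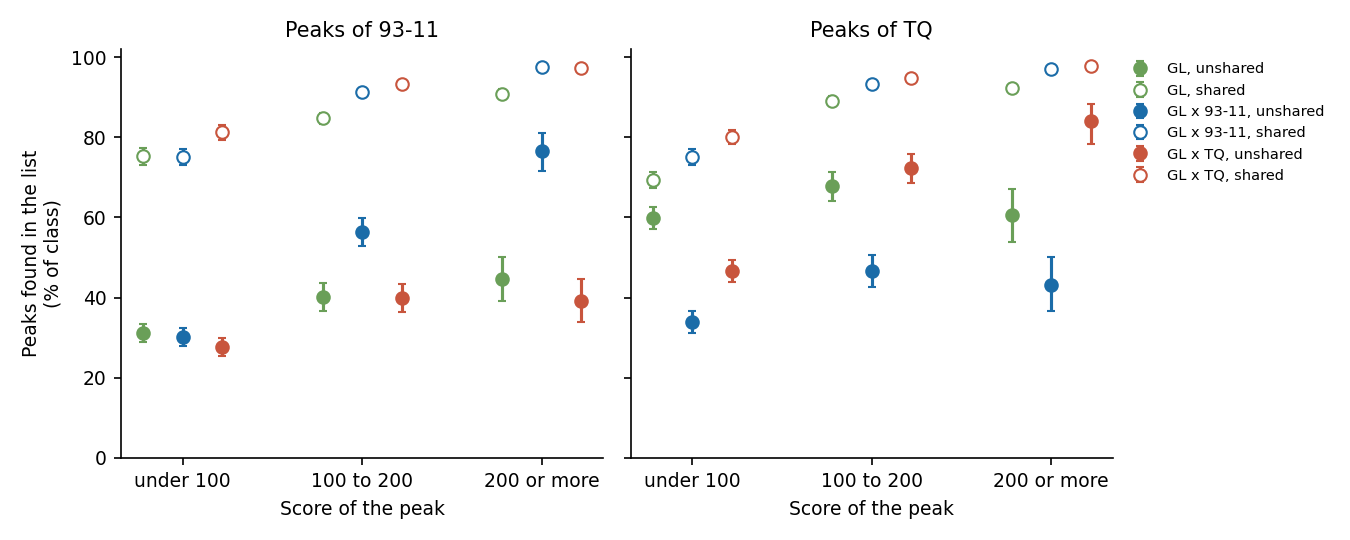
Percentage of the H3K27me3 peaks of 93-11 (left) and TQ (right) found in the lists of GL (green), GL×93-11 (blue) and GL×TQ (red), by score of the peak, for unshared (filled) and shared (open) peaks. Bars are 95% Wilson intervals for counting error. Filled blue points rise to 76.7% for peaks of 93-11 and filled red points to 84.0% for peaks of TQ, while shared peaks with a score of 200 or more lie between 90.9% and 97.9%.

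The presence of the peak in GL, which is a parent of both hybrids, went with a higher share in each hybrid. Of the 948 peaks of 93-11 that GL had and TQ lacked, GL×93-11 had 70.8% (67.8% to 73.6%) while GL×TQ had 57.0% (53.8% to 60.1%). Of the 1272 peaks that TQ and GL had and 93-11 lacked, GL×TQ had 68.1% (65.5% to 70.6%) while GL×93-11 had 55.4% (52.7% to 58.1%). The hybrid whose other parent lacked the call was therefore lower in both cases. No call in GL or in either hybrid was found for 1074 of the 93-11-only peaks (39.9%, 38.0% to 41.7%) and for 428 of the TQ-only peaks (21.0%, 19.3% to 22.8%). These calls rest on a single library each.

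The 6 unshared peaks of highest score in 93-11 were 1200 to 1673 bp long, around the median of 1547 bp of all 93-11-only peaks. First was a peak on chromosome 12 from 20421726 to 20423351, with 836 tags (780 to 895), a score of 1650.2 and a fold of 5.53. A second 93-11-only peak, from 20397629 to 20399020 with 418 tags (379 to 460) and a score of 1010.8, lay 22705 bp before it. GL×93-11 had both, with 505 and 318 tags, and neither GL nor GL×TQ had a peak at either. The same pattern was found on chromosome 1 from 7949090 to 7950762, where 93-11 had 809 tags (754 to 867) and GL×93-11 had 542. It was found again on chromosome 8 from 2634640 to 2636142, with 425 tags (386 to 467) in 93-11 and 513 in GL×93-11. At these 4 places the nearest TQ peak was 7992 to 47787 bp away. A peak on chromosome 5 from 5134225 to 5135424 (326 tags, 292 to 363, at a fold of 10.65) differed, because GL and both hybrids had it and TQ alone lacked the call. A peak on chromosome 9 from 22461440 to 22463013 (557 tags, 512 to 605, at a score of 1138.8) had no counterpart in any of the other 4 H3K27me3 lists.

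Of the 6 unshared TQ peaks of highest score, 4 were also in GL. The highest, at a score of 1088.9, lay on chromosome 9 from 22480584 to 22482861. It held 1192 tags in TQ (1125 to 1262) and 1228 in GL. Another, from 22431651 to 22434553, had 1325 tags (1255 to 1398) in TQ and 1530 in GL. Both hybrids had both peaks, with 845 and 793 tags in GL×93-11 and 1233 and 1362 in GL×TQ. The 93-11-only peak of chromosome 9 lay between these 2 places, 17570 bp before the former and 26886 bp after the latter, so that neighbouring places carried different strong peaks in the 2 varieties. On chromosome 12 from 20711234 to 20712745 TQ had 635 tags (587 to 686), and GL had 573 and GL×TQ 636. On chromosome 1 from 14209275 to 14210219 TQ had 253 tags (223 to 286), with 272 in GL, 256 in GL×TQ and 190 in GL×93-11. The last 2 were not in GL. On chromosome 12 from 17658374 to 17659559 TQ had 280 tags (248 to 315), with 216 in GL×TQ. On chromosome 4 from 30337271 to 30339501 TQ had 794 tags (740 to 851) and no other list had a peak. None of the 12 unshared peaks named here overlapped an H3K36me3 peak of 93-11 or TQ. The same held for 93.3% of all 93-11-only peaks and 91.4% of all TQ-only peaks, so the named peaks did not stand out in this.

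Few places with H3K27me3 in only 1 variety had H3K36me3 in the other. Of the 93-11-only peaks, 5.16% (4.39% to 6.06%) overlapped an H3K36me3 peak of TQ and 4.90% (4.15% to 5.78%) one of 93-11. Of the TQ-only peaks, 5.54% (4.63% to 6.62%) overlapped an H3K36me3 peak of 93-11 and 7.16% (6.12% to 8.36%) one of TQ. For shared peaks the 4 shares were between 6.23% and 6.67%, so the unshared peaks of 93-11 were lower for both libraries. The 93-11-only peaks were also shorter, with a median of 1547 bp against 2000 bp for shared peaks. A shorter peak has less room to overlap another, and what part length had in these shares was not tested. An exchange of marks, with H3K27me3 in 1 variety and H3K36me3 only in the other, was found at 49 peaks of 93-11 (1.82%, 1.38% to 2.40%) and 29 of TQ (1.42%, 0.992% to 2.03%). Shared peaks had H3K36me3 in the other variety alone at a similar rate, 1.32% (1.07% to 1.63%) by the 93-11 list and 1.12% (0.888% to 1.41%) by the TQ list.

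Among the exchanges of highest score, chosen after their values were seen, 93-11 had 247 H3K27me3 tags at a score of 333.4 on chromosome 5 from 14267826 to 14269302. TQ had an H3K36me3 peak with 234 tags over 1274 bp of it, and its nearest H3K27me3 peak was 35742 bp away. On chromosome 6 from 27612587 to 27614556, TQ had 536 H3K27me3 tags at a score of 294.4. There 93-11 had an H3K36me3 peak with 208 tags over 1288 bp of it, and no H3K27me3 peak within 19837 bp. The highest TQ score of this kind, 616.9, was on chromosome 7 from 8843634 to 8845114, with 302 H3K27me3 tags in TQ and 177 H3K36me3 tags in 93-11. Its nearest 93-11 H3K27me3 peak was 4243 bp away. The highest 93-11 score, 386.2, was on chromosome 8 from 26978238 to 26979941, only 124 bp from a TQ H3K27me3 peak. The overlap with H3K36me3 was as short as 3 bp among the exchanges of 93-11 and 21 bp among those of TQ.

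Unshared peaks were found on all 12 chromosomes, at rates that varied between chromosomes. The intervals treat peaks as independent, which neighbouring peaks need not be, and no test was made between chromosomes. For 93-11 the unshared share ran from 24.97% (22.1% to 28.1%) on chromosome 4 to 33.7% (30.4% to 37.3%) on chromosome 5. For TQ it ran from 19.1% (16.6% to 21.9%) on chromosome 3 to 32.1% (28.6% to 35.8%) on chromosome 12. On chromosome 12 the 93-11 share was 32.8% (29.3% to 36.5%), an interval that held the 29.7% of all 93-11 peaks. Chromosomes 9, 10 and 11 had close values in 93-11, at 32.1%, 32.6% and 31.9%. Chromosome 5 was highest in 93-11, while its TQ share was 21.7% (18.6% to 25.1%). On chromosome 5 there were 723 peaks in 93-11 and 609 in TQ, the widest ratio of any chromosome at 1.19, and on chromosome 12 there were 650 and 641. The median log2 level ratio of matched pairs was between 0.04 and 0.10 on every chromosome.

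**Figure D4:**
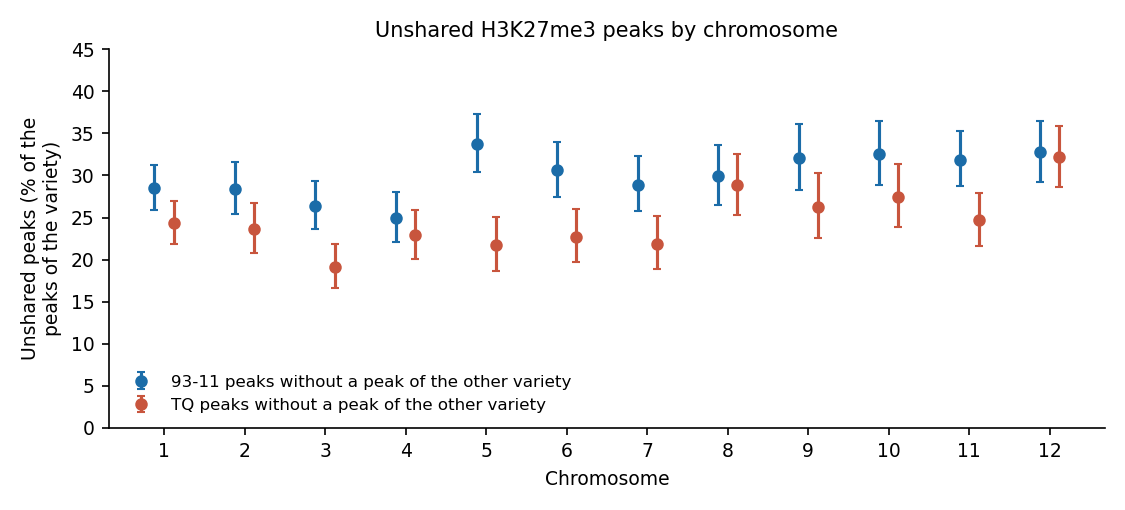
Percentage of the H3K27me3 peaks of 93-11 (blue) and TQ (red) on each chromosome that had no overlapping peak in the other variety, with 95% Wilson intervals for counting error. The TQ share is lowest on chromosome 3, at 19.1%, and highest on chromosome 12, at 32.1%, where it equals that of 93-11 within the intervals.

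Within chromosomes the shared part varied widely. Over the 476 windows of 500 kb with at least 20 peaks, the median window had 76.2% of its peaks shared, with quartiles of 68.6% and 81.8%. All peaks were shared in 2 windows, on chromosome 3 from 20500001 to 21000000, with 12 peaks in each variety, and on chromosome 4 from 23500001 to 24000000, with 11 in each. The lowest value, 27.3%, was shared by a window on chromosome 9 from 9500001 to 10000000 and one on chromosome 12 from 22000001 to 22500000. In these, 16 of 22 peaks each were unshared. Windows also differed in the number of peaks. The largest excess in TQ was on chromosome 10 from 9000001 to 9500000, with 20 peaks and 10638 tags in TQ and 7 peaks and 2463 tags in 93-11. GL and GL×TQ were between, with 14 and 16 peaks, and GL×93-11 had 7 like 93-11. An excess of 7 peaks in TQ was found in 4 windows, and those with the most tags lay on chromosome 12 from 17500001 to 18000000 (14 against 7) and chromosome 4 from 17500001 to 18000000 (17 against 10). In 93-11 the largest excess was on chromosome 7 from 27000001 to 27500000, with 10 peaks against 0, and an excess of 9 was found in 5 windows. Those of the 5 with the most tags lay on chromosome 11 from 17500001 to 18000000 (24 against 15) and on chromosome 3 from 23500001 to 24000000 (21 against 12). In the chromosome 11 window GL had 11 peaks and the hybrids had 13 and 12, all nearer to TQ.

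The order of unshared peaks along the chromosomes was described next. Ordering the peaks of both lists along the chromosomes, 1372 of the 93-11-only peaks (50.9%) and 1224 of the TQ-only peaks (60%) had a shared peak or a peak of the other variety on both sides. The TQ-only peaks were fewer in this order, 2040 against 2693, and what share their number alone would give was not tested. Runs of 4 or more unshared peaks of 1 variety, with none of the other between, numbered 51 in 93-11 and 31 in TQ and held 246 and 145 peaks. The longest run, on chromosome 7 from 27115623 to 27499825, had 10 peaks of 93-11 with 119 to 1100 tags, 8 of them with a score of 100 or more. TQ had 4 H3K36me3 peaks in this span and 93-11 had 6, but none of the 4 lay past 27186886, so over most of the span TQ had no peak of either mark. GL and GL×TQ were like TQ. They had no H3K27me3 peak in the span, and their last H3K36me3 peaks ended at 27186905 and 27186933. GL×93-11 had 6 H3K27me3 peaks in the span. Those from 27177389 to 27180850 (943 tags) and from 27444871 to 27448548 (940 tags) overlapped no peak of the run. The 2 next runs of 93-11, of 8 peaks each, lay on chromosome 11. In the first, from 18574377 to 18853144, GL had 7 H3K27me3 peaks, and TQ had 8 H3K36me3 peaks against 6 in 93-11. In the second, from 5119384 to 5240578, GL had 4 H3K27me3 peaks and TQ had 6 H3K36me3 peaks against 5. In these spans too, most of the 93-11 peaks lay where TQ had no peak of either mark, 5 of the 8 in the first (from 18715917 to 18851097) and 6 of the 8 in the second (from 5179844 on). On chromosome 7 it was 7 of the 10. That TQ had no H3K27me3 peak there follows from how runs were defined. Of all 93-11-only peaks, 93.3% overlapped no H3K36me3 peak of either variety. From 18715917 to 18851097, 93-11 itself had no H3K36me3 peak, and GL had 5 H3K27me3 peaks. From 5179844 on, 93-11 had 1 H3K36me3 peak and GL had 2 H3K27me3 peaks. Only 3 of the 8 peaks in the first run and 1 of the 8 in the second reached a score of 100.

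In TQ the longest run, of 7 peaks with 111 to 654 tags, was on chromosome 12 from 21836591 to 22009353. Only 1 of the 7 had a score of 100 or more, the hybrids had 1 H3K27me3 peak each, no H3K36me3 peak of either variety lay in the span, and GL had no peak of either mark there. Of 4 runs of 6 TQ peaks, the one with the most tags, on chromosome 10 from 9396113 to 9440545, held 3201 tags in 44.4 kb, 4 of them with a score of 100 or more and one at 661.1. GL had 2 H3K27me3 peaks there, GL×TQ had 4 and GL×93-11 had none. The next by tags, on chromosome 9 from 12075861 to 12094886, had 6 peaks with 1982 tags in 19.0 kb, the last of which held 1081 tags. GL and GL×93-11 had 1 peak each in it and GL×TQ had 2.

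**Figure D5:**
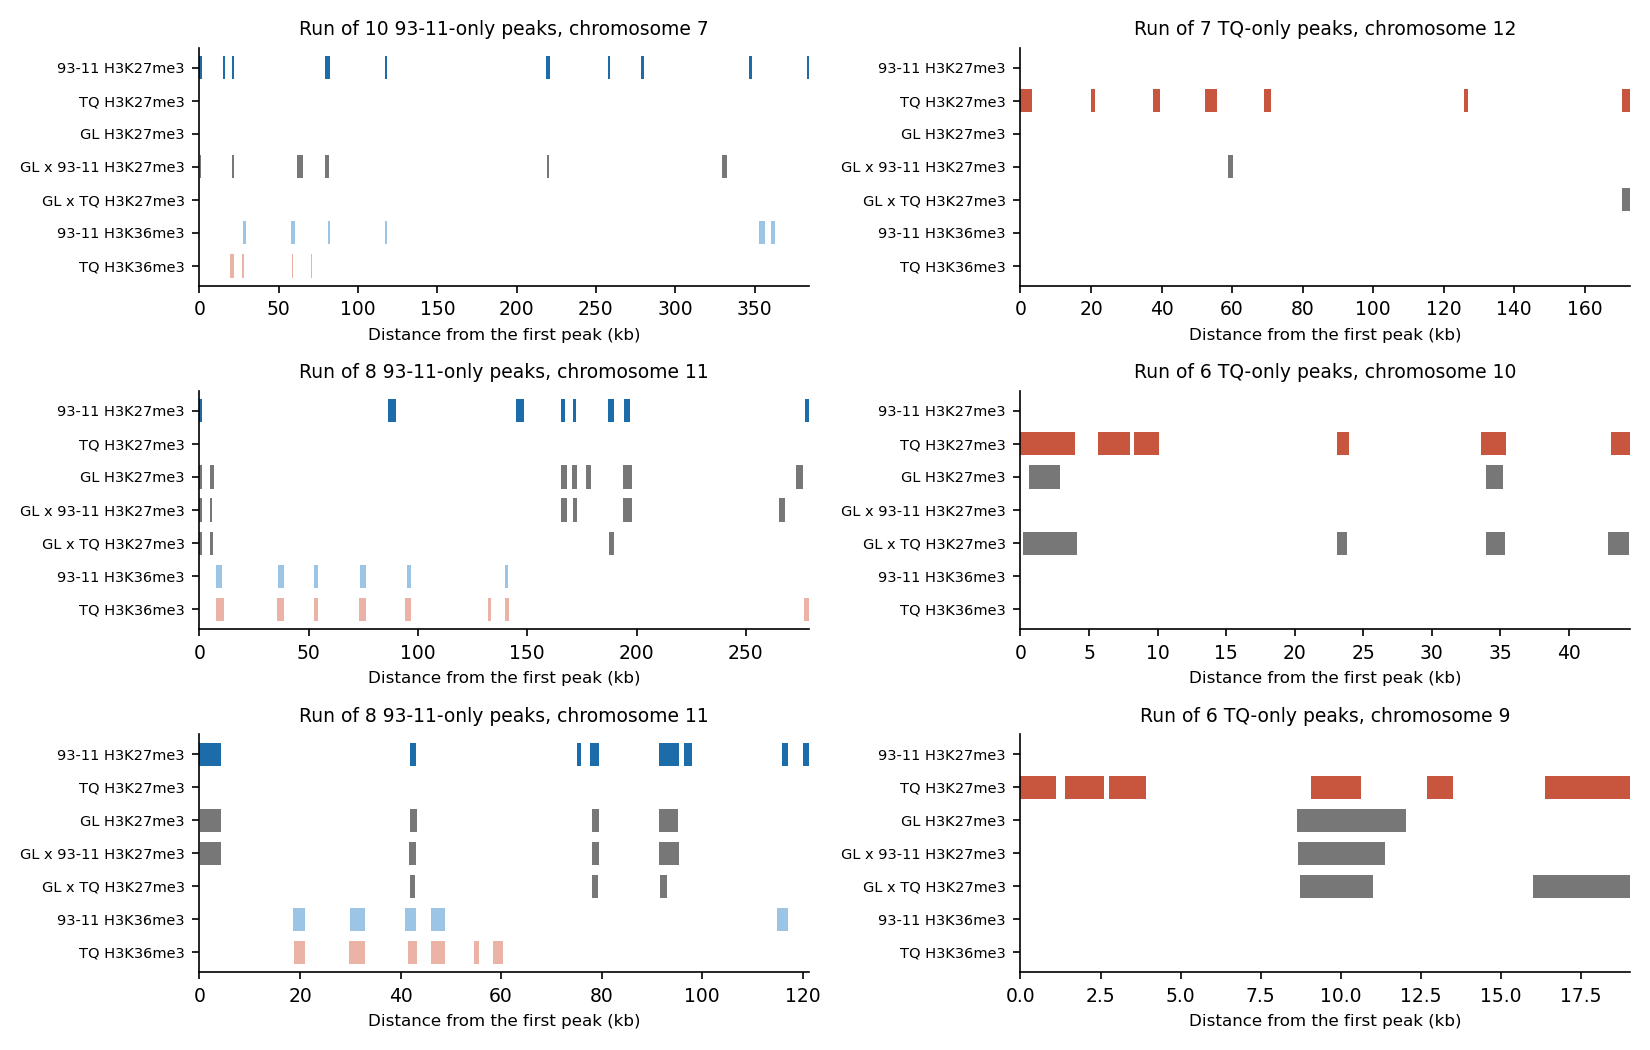
Called peaks in the 3 longest runs of 93-11-only peaks (left) and of TQ-only peaks (right), by distance in kb from the start of the first peak of the run. Each row is 1 library and each bar a peak drawn to scale, with 93-11 in blue, TQ in red, GL and the hybrids in grey and H3K36me3 in pale colours. In the run of 10 peaks on chromosome 7 the 4 H3K36me3 peaks of TQ lie near the start. In the second run on chromosome 11 TQ has no H3K36me3 peak past 60.5 kb, while 93-11 has one from 114.8 to 117.1 kb.

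Stretches of at least 100 kb without a peak of either mark were then listed for each variety. TQ had 310 of them, and 93-11 had H3K27me3 peaks in 124, 225 peaks in all, and peaks of both marks in 39. For the reverse, 93-11 had 298 such stretches, and TQ had H3K27me3 peaks in 108, 192 peaks in all, and both marks in 38. The numbers were close in the 2 directions. At least 3 H3K27me3 peaks of 93-11 fell in 27 stretches and of TQ in 19. On chromosome 4 from 1440636 to 1755856, where TQ had no peak, 93-11 had 6 H3K27me3 and 2 H3K36me3 peaks, GL×93-11 had 1 H3K27me3 peak, and GL and GL×TQ had none. On chromosome 8 from 2811220 to 2923239, where 93-11 had no peak, TQ had 5 H3K27me3 and 4 H3K36me3 peaks, GL×TQ had 5 H3K27me3 peaks, and GL and GL×93-11 had none. On chromosome 6 from 7334259 to 7497905, TQ had 5 H3K27me3 peaks and no H3K36me3 peak, GL×TQ had 6, and GL, 93-11 and GL×93-11 had none. These places were not named by rank, and other stretches went another way. On chromosome 9 from 11434244 to 11618183, TQ had no peak and 93-11 had 5 H3K27me3 peaks. GL and GL×93-11 had 7 H3K27me3 peaks each there and GL×TQ had 6. From 7482107 to 7739775 on chromosome 9, where 93-11 had no peak, TQ had 5, GL and GL×93-11 had 4 each and GL×TQ had 6. Whether the sequence of these stretches is present and can be mapped in the variety without peaks was not tested.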

How the data were processed

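ChIP-seq of H3K27me3 and H3K36me3 was done for 5 genotypes, which gives 10 libraries. Reads were filtered by the authors and aligned by SOAP2 to Nipponbare (Gramene), and MACS was run on every library separately. The genome version and the use of an input control in peak calling are not given in the sources used here. For each peak the deposited files hold a tag count, a fold enrichment ratio and a score, each written by the authors' peak caller. The heading of the score column was lost. Its meaning was inferred from its lowest value of about 50, which is where the calling threshold would fall on the scale used here.

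Levels were tags per kb divided by the sum of tags of the list. Peaks were compared by overlap. Regions were named by rank of score (6 unshared peaks a variety, 3 matched pairs), of level ratio (6 pairs a side), of number of neighbouring or joined peaks and of window difference (3 each). The members and rules were chosen with earlier results of these data known. With 1 library a side, no test was made. The counting was tested on simulated data. Alternatives covered overlap, gap, score, number of peaks, library total and division by length. The gene table at hand is on another assembly and was not used. The scripts ran under Python 3.11.15 with matplotlib 3.10.9, networkx 3.6.1, numpy 2.4.6, pandas 2.3.3 and scipy 1.17.1.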

Additional observations from a re-analysis of the deposited data

How the results depend on the processing

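No ratio changed sign or side of 1, but the order of some shares did change. Of the values that answer a comparison, 57 stayed within their counting interval or 1.5 times their count and 38 moved, and of the values of single regions 34 stayed and 14 moved. An overlap of 50% of the shorter peak moved none. Counting gaps under 500 bp as shared gave shares of 71.2% in 93-11 and 76.6% in TQ. With the same number of peaks kept in both lists, the shares were 72.7% and 72.6%. Nearly all overlaps joined 1 peak to 1 peak, so lists of equal size had to give nearly equal shares. This setting therefore cannot tell which variety is the higher. GL×93-11 and GL×TQ then had 46.7% and 34.5% of the 93-11-only peaks, and GL×93-11 had 41.5% of the TQ-only peaks. With a score of 100 or more asked of the counted peaks alone, 81.3% and 84.6% were shared. The ratios of unshared to shared peaks became 0.865 and 0.933 for length and 0.854 and 0.902 for level. GL, GL×93-11 and GL×TQ had 41.5%, 62.3% and 39.7% of the 93-11-only peaks and 66.0%, 45.8% and 75.3% of the TQ-only peaks. With that score asked in both lists, 66.0% and 71.6% were shared, the length ratios were 0.836 and 0.915 and the level ratios 0.818 and 0.873. GL, GL×93-11 and GL×TQ then had 54.8%, 72.1% and 60.9% of the 93-11-only (GL below GL×TQ, the reverse of 35.2% and 32.4%) and 75.4%, 64.7% and 82.8% of the TQ-only peaks. The median log2 level ratio of matched pairs was then 0.085, with 13 and 5 pairs over 2-fold higher in TQ and 93-11. It was 0.18 with unique mapped reads as total and 0.037 with whole tags not divided by length, where 226 and 185 pairs passed 2-fold. No paired analysis was possible because each variety had 1 library and the labels give no replicate numbers. A missing call cannot be told from a weak one, the spread between plots was not measured, and mapping of indica reads to a japonica genome may differ between the varieties, which was not tested.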
